A study of Mus musculus and Homo sapiens with 24 samples.

Results

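The genes of glycolysis, pyruvate handling, gluconeogenesis and glycogen turnover were examined in HepG2 cells, a human hepatoma line that serves as a stand-in for the hepatocyte. The list held 43 gene symbols, picked by pathway with earlier results of these data known, and all 43 had a row in the count table of 28278 genes. RNA-Seq had been done on 12 HepG2 libraries, 3 in each of 4 groups. The control cells received neither agent, the CoCl2 cells received 50 μM cobalt chloride, the estrogen cells received 25 nM 17β-estradiol, and the CoCl2+estrogen cells received both, each for 4 hours after a night in serum-free medium. Cobalt ions keep the transcription factor HIF1α from being degraded in normal oxygen, so the CoCl2 groups were a chemical stand-in for low oxygen, in 1 tumor-derived line. The study used the design to ask how estrogen and a hypoxia-like state act on the liver cell alone and together. The labels did not say whether replicates A, B and C came from separate cultures, and p-values therefore measure only the spread between these libraries, which may be technical.

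Glycolysis takes up glucose through membrane transporters, traps it with a hexokinase, and splits it in a chain of cytosolic enzymes to pyruvate. Pyruvate is then reduced to lactate by lactate dehydrogenase or carried into mitochondria, where the pyruvate dehydrogenase complex turns it into acetyl-CoA unless pyruvate dehydrogenase kinases (PDKs) switch the complex off. The liver can also run the path in reverse, making glucose from pyruvate with a few enzymes of its own, and it stores glucose as glycogen. HIF1α is the textbook activator of glucose transporters, glycolytic enzymes, LDHA and PDK1 when oxygen is scarce.

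Levels are given as CPM, each gene's share of a library's reads, after trimmed mean of M values (TMM) scaling over the 12 libraries, as mean ± SD with n = 3 per group. They are compared only between groups for 1 gene, because gene lengths were not used here. Differences are log2 fold changes ± SE from edgeR's quasi-likelihood test, fitted on every gene that exceeded 5 counts in 1 or more libraries of the comparison, and a gene was called changed when its Benjamini-Hochberg adjusted p was at most 0.05. The libraries held between 13592637 and 21701480 counts. CoCl2 replicate B stood apart from the other 2 libraries of its group, with a chi-square per gene of 42.9 to 61.4 against 6.16 to 16.0 in every other replicate pair. All 15 hepatocyte markers looked at were above 1 CPM in each group. Of 10 markers of leukocytes, endothelium and fibroblasts, 3 or 4 were above 1 CPM in each group. CD68, COL1A1 and PDGFRB had 29.1 ± 3.93, 20.8 ± 1.82 and 6.62 ± 0.793 CPM in control, and PTPRC, COL3A1 and DCN had no counts.

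Of the 43 genes, 41 had enough counts to be tested. LDHB, the heart-type lactate dehydrogenase subunit, had 0 counts in all 12 libraries, which allows up to 0.0651 CPM per group, the value of 3 counts in the estrogen group. FBP2, the muscle fructose bisphosphatase, had 0 counts in control, 1 in CoCl2, 0 in estrogen and 4 in CoCl2+estrogen cells and was not tested. FBP1, the liver fructose bisphosphatase that reverses the phosphofructokinase step, had only 14 to 39 counts per group and did not pass the test in any comparison. GYS2, the liver form of glycogen synthase and not among the 43, lay at or near 0 counts, so the tested gene at this step was GYS1.

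Summed over the 43 genes, the level was 8829 to 9316 CPM in the control libraries. It was 11210 to 12030 CPM with CoCl2, 6645 to 7136 CPM with estrogen, and 8220 to 8548 CPM with both agents. The 4 groups did not overlap, with CoCl2 the highest and estrogen the lowest. Since each library pooled the RNA of many cells, less RNA of a gene per cell and fewer cells with that RNA cannot be told apart here. The levels are shares of a scaled library, so higher and lower mean relative to other genes and not amounts per cell. TMM scaling takes most genes as unchanged, while 68.9% of all genes tested were called with estrogen alone.

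**Figure D1:**
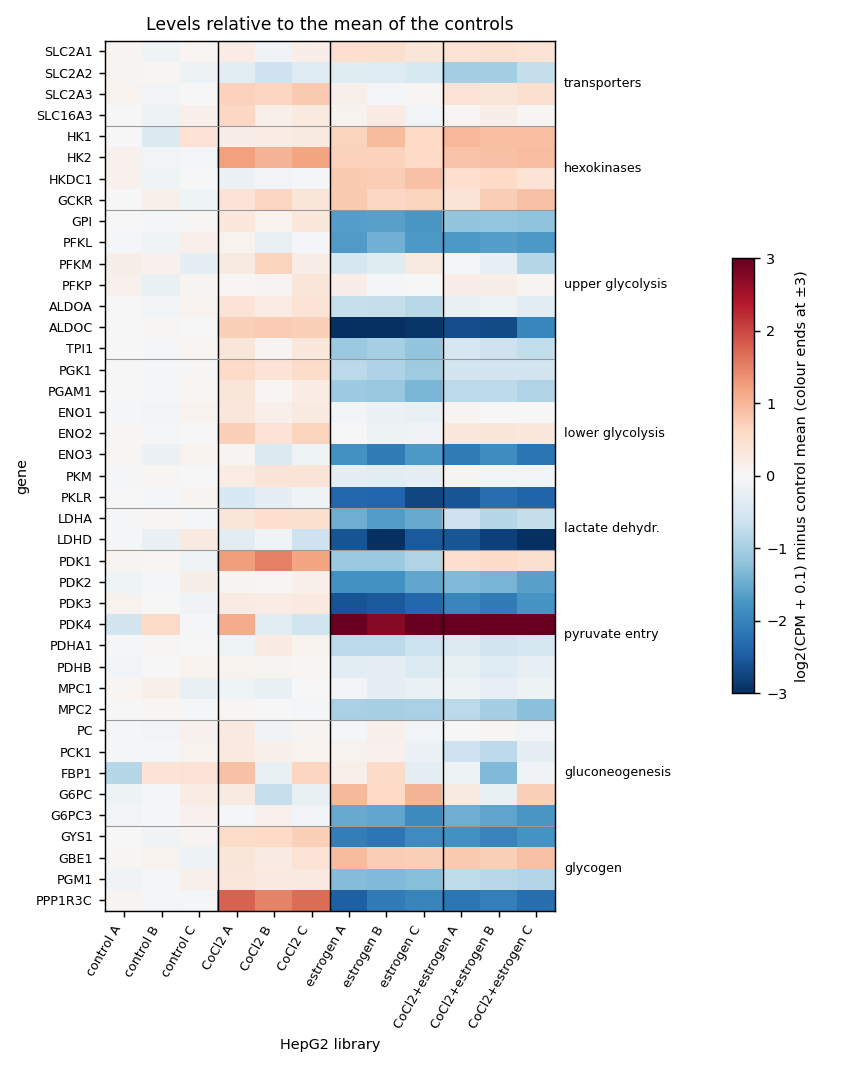
Heatmap of the 41 tested genes (rows, ordered by role) in the 12 HepG2 libraries (columns), coloured by log2(CPM + 0.1) minus the mean of the 3 control libraries, with colour ending at ±3. Red cells are mainly in the CoCl2 columns and in the hexokinase rows, and the blue block covers most enzyme rows of the 6 libraries with estrogen, with PDK4 as a red row in it.

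CoCl2 alone raised 10 of the 41 genes and lowered none by edgeR's test, 2 lower genes (SLC2A2 and PKLR) having an unadjusted p under 0.05. Those 10 were the glucose transporter SLC2A3, the hexokinase HK2, the glycolytic enzymes ALDOC, PGK1, ENO2 and PKM, the lactate dehydrogenase LDHA, the kinase PDK1, and the glycogen genes GYS1 and PPP1R3C. Over all genes tested in this comparison 1.44% were called, 1.31% of them higher and 0.132% lower, each as a share of the genes tested, against 24.4% of the listed genes. The median log2 fold change was 0.26 over the 41 genes and -0.0033 over all genes tested. DESeq2 called 16 of the 41 in place of 10, adding ALDOA, ENO1, GPI, PGM1 and SLC16A3 as higher and SLC2A2 as lower. In edgeR, SLC2A2 was also called lower with the replicate letter as a block (adjusted p = 0.0254), with no filter on low counts (adjusted p = 0.0236) and in a joint fit of the 12 libraries (adjusted p = 0.0216), and ALDOA was called higher in the same settings (adjusted p of 0.0270, 0.0111 and 0.0184).

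The largest increase belonged to PPP1R3C, which targets protein phosphatase 1 to glycogen and so favours glycogen synthesis. Its levels were 12.6, 11.5 and 11.6 CPM in the control libraries, 40.8, 33.5 and 38.3 CPM in CoCl2, 2.09, 2.72 and 2.92 CPM in estrogen and 2.58, 2.78 and 2.4 CPM in CoCl2+estrogen. Every CoCl2 library was above every control library, and the 6 libraries with estrogen were lowest whether or not CoCl2 was present. The CoCl2 increase was 3.17-fold, a log2 fold change of 1.66 ± 0.094 (adjusted p = 5.32e-06). GYS1, the glycogen synthase of muscle and most other tissues, was measured at 45.9, 42.7 and 48.6 CPM in the control libraries, 67, 69.4 and 75 CPM in CoCl2, 10.8, 10.0 and 12.2 CPM in estrogen and 13, 11.4 and 13.1 CPM in CoCl2+estrogen. It followed the same order of groups, and with CoCl2 alone it rose 1.55-fold (log2 0.63 ± 0.085, adjusted p = 0.00244). GBE1, the glycogen branching enzyme, and PGM1, which interconverts glucose 1- and 6-phosphate, had log2 differences of 0.35 and 0.31 that did not pass the test.

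PDK1, which phosphorylates and switches off pyruvate dehydrogenase, had levels of 64.6, 63.6 and 56.5 CPM in the control libraries, 148, 176 and 141 CPM in CoCl2, 28.5, 28.4 and 32.7 CPM in estrogen and 86.6, 92.2 and 86.2 CPM in CoCl2+estrogen. The CoCl2 libraries were the highest and the estrogen libraries the lowest, with no overlap among the 4 groups. CoCl2 alone raised PDK1 2.52-fold (log2 1.33 ± 0.099, adjusted p = 3.38e-05). The related kinases PDK2 and PDK3 differed by 0.09 and 0.26 on the log2 scale and did not pass the test. LDHA, the muscle-type subunit that makes lactate from pyruvate, was present at 1276, 1360 and 1262 CPM in the control libraries, 1660, 1851 and 1822 CPM in CoCl2, 467, 406 and 455 CPM in estrogen and 839, 720.0 and 793 CPM in CoCl2+estrogen. Here too the groups did not overlap, and the LDHA increase with CoCl2 alone was 1.37-fold (log2 0.46 ± 0.069, adjusted p = 0.00566). LDHD, a mitochondrial enzyme for D-lactate, had means of 5.29 ± 0.933 CPM in control and 4.08 ± 0.7 CPM in CoCl2 and did not pass the test. The remaining genes of pyruvate entry, namely the pyruvate dehydrogenase subunits PDHA1 and PDHB, the mitochondrial pyruvate carriers MPC1 and MPC2, and PDK4, did not pass it either.

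Of the sugar-trapping genes, HK2, the inducible hexokinase of muscle and tumors, had 200.2, 175 and 178 CPM in the control libraries, 429.7, 376 and 421 CPM in CoCl2, 295, 298 and 280.5 CPM in estrogen and 334, 341 and 352 CPM in CoCl2+estrogen. All treated libraries exceeded all control libraries, and those with CoCl2 alone were the highest. With CoCl2 alone the increase was 2.22-fold (log2 1.15 ± 0.078, adjusted p = 1.93e-05). HK1, HKDC1 and GCKR, which are the housekeeping hexokinase, a further hexokinase-like enzyme and a regulatory protein of glucose phosphorylation, did not pass the test with CoCl2 alone. SLC2A3, the high-affinity transporter GLUT3, showed 810.2, 709 and 751 CPM in the control libraries, 1222, 1183 and 1294 CPM in CoCl2, 846, 724 and 774 CPM in estrogen and 1023, 978 and 1061 CPM in CoCl2+estrogen. Control and estrogen libraries overlapped for SLC2A3, while the CoCl2+estrogen and then the CoCl2 libraries lay above them. It rose 1.63-fold with CoCl2 alone (log2 0.71 ± 0.071, adjusted p = 0.000287). SLC2A3 shares nearly all of its sequence with SLC2A14, which was listed at 13.7 ± 1.45 CPM in control and 16.3 ± 0.82 CPM in CoCl2, and reads of the pair may have been split in the counting. SLC2A1, the widely expressed transporter GLUT1, differed by 0.11 ± 0.095 on the log2 scale, and SLC16A3, the lactate exporter MCT4, by 0.37 ± 0.11, neither passing the test.

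Within the chain from glucose 6-phosphate to pyruvate, 4 of 14 tested genes were higher with CoCl2 alone, or 28.6% against 1.31% of all genes tested. ALDOC, the brain-type aldolase, had 6.3, 6.56 and 6.3 CPM in the control libraries, 10.6, 10.9 and 10.6 CPM in CoCl2, 0.622, 0.286 and 0.765 CPM in estrogen and 0.927, 0.907 and 1.57 CPM in CoCl2+estrogen. The CoCl2 libraries stood above control, and all 6 libraries with estrogen were far below both. ALDOC rose 1.68-fold with CoCl2 (log2 0.75 ± 0.12, adjusted p = 0.00763), a call that was lost without control replicate A, where the log2 value was 0.74. PGK1, the first ATP-making enzyme of the path, had 284, 275 and 287 CPM in the control libraries, 418, 376 and 414 CPM in CoCl2, 161, 148 and 134 CPM in estrogen and 189, 189 and 188 CPM in CoCl2+estrogen. Its groups did not overlap, and with CoCl2 alone it increased 1.43-fold (log2 0.51 ± 0.065, adjusted p = 0.00149). ENO2, the neuronal enolase, was found at 46.9, 43.9 and 46.1 CPM in the control libraries, 75.2, 61.8 and 72.6 CPM in CoCl2, 46.2, 40.8 and 42.1 CPM in estrogen and 57, 58.4 and 57.2 CPM in CoCl2+estrogen. Only its control and estrogen libraries overlapped, and its CoCl2 increase was 1.54-fold (log2 0.62 ± 0.091, adjusted p = 0.00459).

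PKM, the pyruvate kinase of most tissues and tumors, was the smallest of the 10 changes at log2 0.34 ± 0.072 (adjusted p = 0.0471). Its call was lost without control replicate A, B or C or CoCl2 replicate B or C, with log2 values between 0.30 and 0.37. It was also lost with upper-quartile scaling, library totals alone or filterByExpr, where the log2 value was 0.27 to 0.34. ALDOA, the main aldolase, just missed the threshold at log2 0.35 ± 0.076 (adjusted p = 0.0535). GPI, TPI1, PGAM1 and ENO1, the isomerase, triose, mutase and enolase steps, had log2 differences of 0.25, 0.26, 0.22 and 0.26 without passing the test. Leaving out CoCl2 replicate B brought the number of called genes from 10 to 14, with ALDOA, ENO1, GPI, SLC16A3 and TPI1 gained and PKM lost. GAPDH, the enzyme between the triose and PGK1 steps, was not on the list but is often used as a reference gene. It had 1600 ± 125 CPM in control and 1943 ± 104 CPM in CoCl2, a log2 difference of 0.28 ± 0.072 (adjusted p = 0.108).

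None of the 5 tested gluconeogenic genes passed edgeR's test with CoCl2 alone, 0 of them had an unadjusted p under 0.05, and DESeq2 called 0. With 1.44% of all genes tested called in this comparison, 0 of 5 is near the background and does not set these genes apart. PC, the pyruvate carboxylase that starts the reverse path, averaged 66.3 ± 5.2 CPM in control and 70.4 ± 9.21 CPM in CoCl2. PCK1, the cytosolic PEP carboxykinase, averaged 5.72 ± 0.355 and 6.5 ± 0.449 CPM. SLC2A2, the liver transporter GLUT2, pointed down at log2 -0.44 ± 0.10 (adjusted p = 0.0793).

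**Figure D2:**
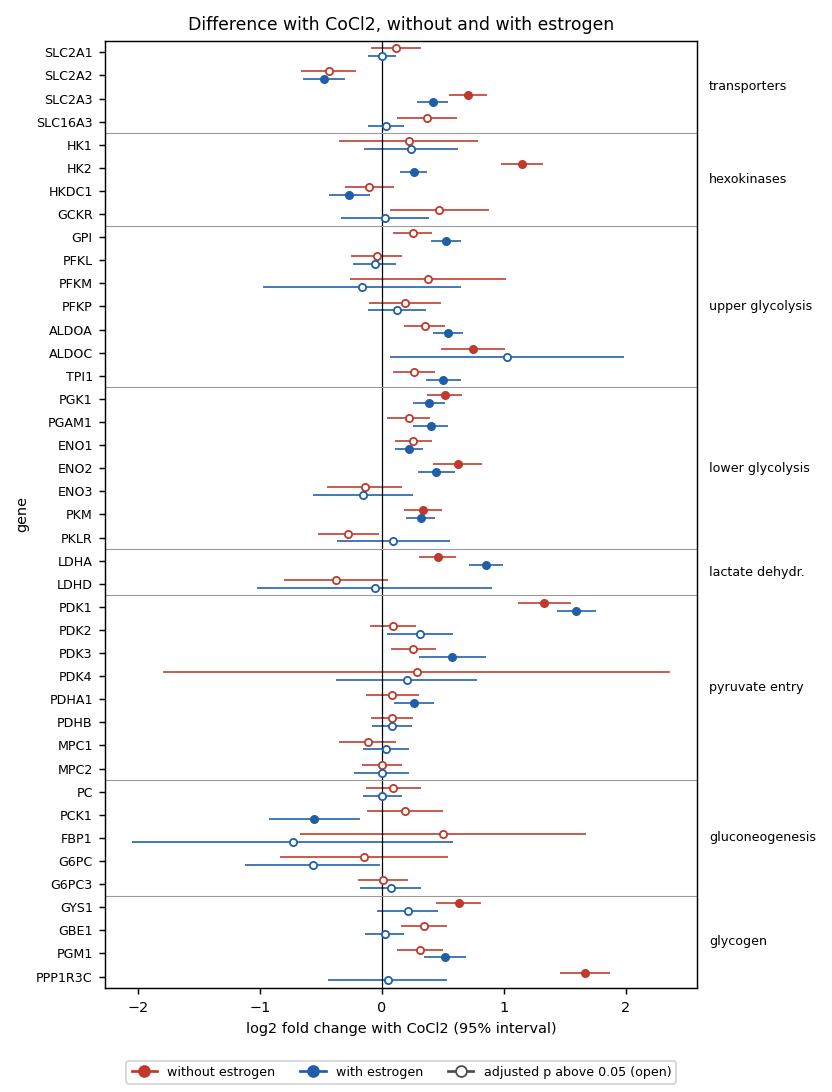
Log2 fold change with CoCl2 and its 95% interval (horizontal axis) for the 41 tested genes (vertical axis, by role), without estrogen (red, CoCl2 against control) and with estrogen (blue, CoCl2+estrogen against estrogen). Filled points have an adjusted p of at most 0.05. HK2 and PPP1R3C are far to the right in red and near 0 in blue, while PDK1 is to the right in both.

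Estrogen alone changed 32 of the 41 genes, 8 upward and 24 downward. In this comparison 68.9% of all genes tested were called, 34.7% higher and 34.2% lower. The share of listed genes called, 78%, was thus close to the background, and their direction was uneven, with 19.5% higher and 58.5% lower. The median log2 fold change was -0.43 over the 41 genes and -0.0040 over all genes tested, and 17 of the genes fell by more than 1 on the log2 scale while 1 rose by more than 1. The level of hepatocyte markers was lower as well: 14 of the 15 markers fell and 1 rose, and their summed level was 17070 to 18360 CPM with estrogen against 31240 to 33970 CPM in control. The 10 markers of other cell types summed to 25.7 to 27.5 CPM with estrogen against 56.6 to 61.8 CPM in control. They did not move together, since of the 6 tested 1 was called higher and 3 lower. The sum was mainly COL1A1, from 20.8 to 1.155 CPM, and CD68, from 29.1 to 15.1 CPM. PDGFRB averaged 6.62 CPM in control and 7.58 CPM with estrogen. The part of these shifts in the changes of the listed genes was not tested.

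The enzymes between glucose 6-phosphate and pyruvate made up 11 of the 24 genes lowered by estrogen. Of the 14 tested, 11 were lower with estrogen by edgeR and by DESeq2, 0 were higher by either tool or at an unadjusted p under 0.05, and PFKM, PFKP and ENO2 did not pass the test. The lower genes were thus 78.6% of those tested in the chain, against 34.2% of all genes tested. PKLR, the liver form of pyruvate kinase, had 15.6, 15 and 16.5 CPM in the control libraries, 11.4, 12.9 and 14.4 CPM in CoCl2, 3, 2.93 and 2.29 CPM in estrogen and 2.58, 3.14 and 2.87 CPM in CoCl2+estrogen. All estrogen libraries were below all libraries without estrogen, and PKLR stood at 17.4% of control (log2 -2.52 ± 0.14, adjusted p = 3.7e-10). ALDOC, given above, fell furthest, to 8.82% of control (log2 -3.50 ± 0.26, adjusted p = 8.72e-09), on 11, 4 and 11 counts in the estrogen libraries. GPI, which turns glucose 6-phosphate into fructose 6-phosphate, dropped from 359 ± 9.24 to 112 ± 4.42 CPM (log2 -1.69 ± 0.059). PFKL, the liver phosphofructokinase at the committed step, went from 147 ± 14.6 to 47.9 ± 5.57 CPM (log2 -1.63 ± 0.089), while its platelet and muscle relatives PFKP and PFKM did not pass the test.

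The other enzymes of the chain fell by different amounts. ENO3, the muscle enolase, changed by -1.91 ± 0.14, PGAM1 by -1.21 ± 0.071, TPI1 by -1.11 ± 0.064 and ALDOA by -0.76 ± 0.061 on the log2 scale. PGK1 was reduced to 51.8% of control (log2 -0.95 ± 0.067, adjusted p = 5.96e-09). The smallest reductions were those of PKM at -0.33 ± 0.056 and ENO1, the main enolase, at -0.17 ± 0.059, and the ENO1 call was lost without estrogen replicate C (log2 -0.15). GAPDH changed in the same direction, from 1600 ± 125 to 922 ± 25.6 CPM (log2 -0.81 ± 0.06, adjusted p = 1.11e-08). Values set relative to GAPDH would thus differ from those given here.

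All 4 tested genes of the hexokinase group rose with estrogen, opposite in direction to the enzymes downstream of them. Over all genes tested, 34.7% were higher. HKDC1 had 24.2, 20.2 and 22.3 CPM in the control libraries, 19.5, 20.9 and 21.6 CPM in CoCl2, 38.1, 36.9 and 41 CPM in estrogen and 31.5, 33.4 and 29.4 CPM in CoCl2+estrogen. The 6 libraries with estrogen were above the 6 without it, and the HKDC1 increase with estrogen alone was 1.72-fold (log2 0.78 ± 0.088, adjusted p = 1.21e-06). HK1 was measured at 2.17, 1.55 and 2.92 CPM in the control libraries, 2.48, 2.53 and 2.6 CPM in CoCl2, 3.45, 4.22 and 3.27 CPM in estrogen and 4.37, 4.11 and 4.11 CPM in CoCl2+estrogen. Its estrogen libraries were above the control libraries without overlap, at 1.65-fold (log2 0.72 ± 0.24, adjusted p = 0.0168), but the call was lost without control replicate B (log2 0.51) or estrogen replicate B (log2 0.59). HK2 increased 1.56-fold (log2 0.64 ± 0.066, adjusted p = 3.9e-07) and GCKR 1.61-fold (log2 0.68 ± 0.17, adjusted p = 0.0027).

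Transporters did not share a direction with estrogen. SLC2A1 rose from 884 ± 71.2 to 1211 ± 60.8 CPM (log2 0.44 ± 0.065, adjusted p = 2.27e-05). SLC2A2 fell from 61.1 ± 5.33 to 45.9 ± 1.49 CPM (log2 -0.43 ± 0.078, adjusted p = 0.000164). SLC2A3 averaged 757 ± 50.7 CPM in control and 781 ± 61 CPM in estrogen, and SLC16A3 309.9 ± 31.5 and 329.5 ± 37.1 CPM, neither of them passing the test.

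At the fate of pyruvate, estrogen lowered both tested lactate dehydrogenases. LDHD was found at 5.11, 4.46 and 6.3 CPM in the control libraries, 4.09, 4.77 and 3.37 CPM in CoCl2, 0.791, 0.5 and 0.834 CPM in estrogen and 0.795, 0.665 and 0.547 CPM in CoCl2+estrogen. The libraries with estrogen lay well below the others, on 7 to 14 counts each, and LDHD stood at 13.5% of control with estrogen alone (log2 -2.88 ± 0.26, adjusted p = 8.63e-08). LDHA was at 33.7% of control (log2 -1.57 ± 0.065, adjusted p = 1.62e-11). The kinases of pyruvate dehydrogenase moved apart: PDK1, PDK2 and PDK3 fell and PDK4 rose. PDK3 had 48.5, 45.3 and 41.5 CPM in the control libraries, 53.7, 52.8 and 55.1 CPM in CoCl2, 7.4, 7.72 and 8.76 CPM in estrogen and 11.5, 10.4 and 13.1 CPM in CoCl2+estrogen. Its estrogen libraries were the lowest and its CoCl2+estrogen libraries the next, both far under the 6 libraries without estrogen, and with estrogen alone the level was 17.4% of control (log2 -2.52 ± 0.11, adjusted p = 1.7e-11). PDK2 changed by -1.75 ± 0.11 and PDK1 by -1.06 ± 0.084 on the log2 scale.

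PDK4, the kinase linked to fasting and fat oxidation, was the only listed gene to rise more than 2-fold with estrogen. It had 0.0517, 0.228 and 0.117 CPM in the control libraries, 0.377, 0.0745 and 0.0449 CPM in CoCl2, 2.6, 1.36 and 1.95 CPM in estrogen and 1.99, 2.42 and 2.33 CPM in CoCl2+estrogen, from 1, 5 and 2 counts in the control libraries. Every library with estrogen was above every library without it, and the control and CoCl2 libraries overlapped. Pooled over libraries, PDK4 was 14.7 times the control level with estrogen, with a 95% interval of 7.18 to 35.2 that covers counting error only (edgeR log2 3.78 ± 0.50, adjusted p = 7.2e-06). The complex itself was lower, with PDHA1, its catalytic alpha subunit, at -0.76 ± 0.071 and PDHB at -0.36 ± 0.073 on the log2 scale. MPC2 fell to 49.9% of control (adjusted p = 1.49e-08), and its partner MPC1, at -0.22 ± 0.11, did not pass the test.

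Of the 5 tested gluconeogenic genes, 1 rose and 1 fell with estrogen. The called share, 40%, was below the 68.9% of all genes tested and does not set these genes apart. Among further gluconeogenesis genes that were not on the list, 6 of 8 tested were called with estrogen alone, 1 higher and 5 lower. G6PC, the liver glucose 6-phosphatase that releases free glucose, had 1.45, 1.55 and 1.93 CPM in the control libraries, 1.99, 0.969 and 1.39 CPM in CoCl2, 3.28, 2.5 and 3.41 CPM in estrogen and 1.99, 1.39 and 2.74 CPM in CoCl2+estrogen. Its estrogen libraries were above all control libraries while the CoCl2+estrogen libraries overlapped them, and the estrogen increase was 1.86-fold (log2 0.89 ± 0.24, adjusted p = 0.0038). G6PC3, the ubiquitous glucose 6-phosphatase, fell from 53.5 ± 4.46 to 17 ± 2.47 CPM (log2 -1.66 ± 0.099, adjusted p = 8.52e-10). PC averaged 66.5 ± 5.7 CPM and PCK1 5.82 ± 0.643 CPM with estrogen, and neither passed the test.

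The glycogen genes split as well. GBE1 had 29.4, 30.8 and 25.9 CPM in the control libraries, 37, 33.8 and 38.4 CPM in CoCl2, 55.1, 47.6 and 47 CPM in estrogen and 49.3, 47.4 and 52.7 CPM in CoCl2+estrogen. The libraries with estrogen were the highest for GBE1, an increase of 1.72-fold with estrogen alone (log2 0.78 ± 0.088, adjusted p = 1.19e-06). PPP1R3C and GYS1, the genes CoCl2 had raised, fell to 21.3% and 23.9% of control (log2 -2.23 ± 0.16 and -2.07 ± 0.096). PGM1 changed from 56 ± 5.1 to 22.6 ± 0.362 CPM (log2 -1.33 ± 0.078).

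**Figure D3:**
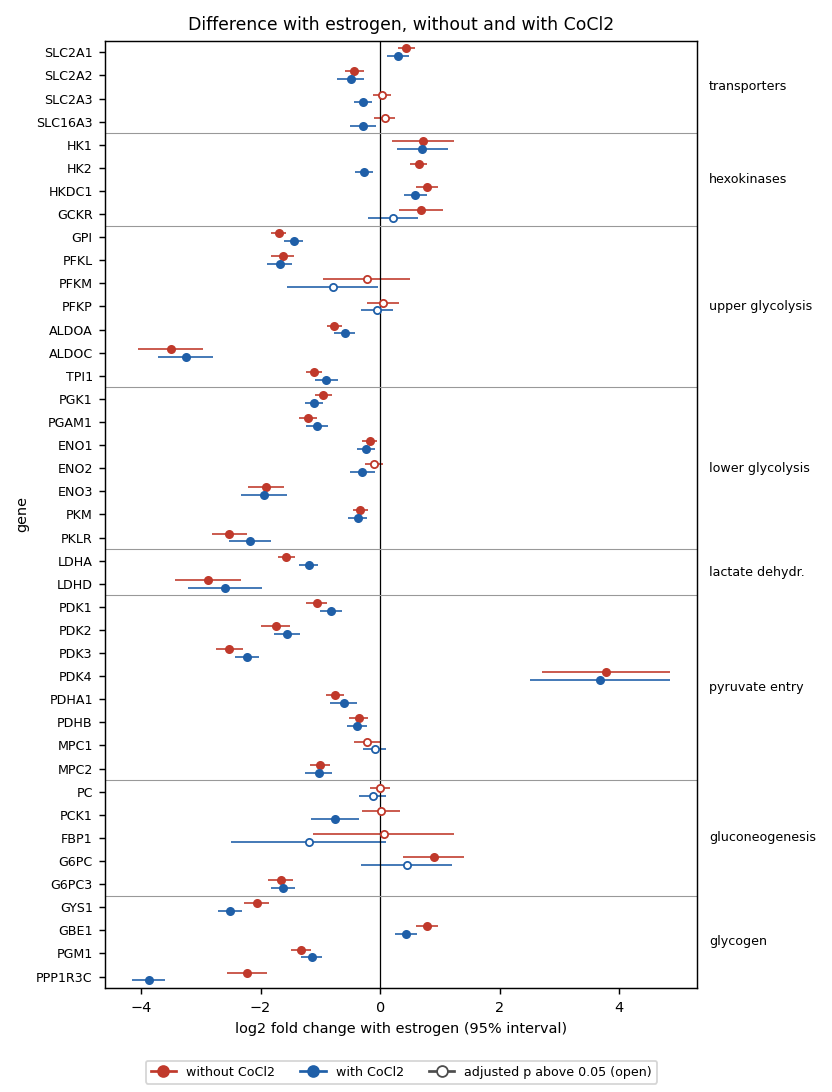
Log2 fold change with estrogen and its 95% interval (horizontal axis) for the 41 tested genes (vertical axis, by role), without CoCl2 (red, estrogen against control) and with CoCl2 (blue, CoCl2+estrogen against CoCl2). Filled points have an adjusted p of at most 0.05. Most enzyme rows lie left of 0 in both colours and PDK4 lies far right in both, while HK2 is right of 0 in red and left of 0 in blue and PPP1R3C is further left in blue.

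With both agents together, 10 of the 41 genes were higher and 22 lower than in control cells. Of all genes tested, 65.4% were called, 32.3% higher and 33.2% lower. The median log2 fold change was -0.54 over the 41 genes against -0.0090 over all genes tested. This comparison used the same control libraries as the comparisons of each agent alone. PDK4 and HK1 had the largest increases at log2 3.95 ± 0.45 and 0.91 ± 0.23, and LDHD and ALDOC the largest reductions at -2.99 ± 0.26 and -2.52 ± 0.22. PDK4 had 16.4 times the control level in pooled counts, with a counting interval of 8.04 to 39.1. HK2 was 1.82-fold above control (log2 0.86 ± 0.064), GBE1 1.7-fold (log2 0.76 ± 0.083) and PDK1 1.41-fold (log2 0.49 ± 0.072). PDK1 was thus above control with CoCl2 alone and with both agents and below it with estrogen alone. SLC2A3 and ENO2 were also higher with both agents, by 0.40 ± 0.059 and 0.31 ± 0.064 on the log2 scale.

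Genes that CoCl2 alone raised but that stayed below control with both agents were ALDOC, PGK1, LDHA, GYS1 and PPP1R3C. PGK1 stood at 65.6% of control, LDHA at 59.2%, GYS1 at 26.8% and PPP1R3C at 21.4%. SLC2A2 was at 32.4 ± 3.81 CPM, below its means of 45 ± 4.79 CPM with CoCl2 and 45.9 ± 1.49 CPM with estrogen, and its difference from control was -0.95 ± 0.092 on the log2 scale (adjusted p = 4.49e-07). PCK1, which neither agent alone had moved past the test, was lower with both, at 3.9 ± 0.747 CPM against 5.72 ± 0.355 CPM in control (log2 -0.58 ± 0.17, adjusted p = 0.00768). PCK2, the mitochondrial PEP carboxykinase and not on the list, averaged 113.5 ± 8.12 CPM in control and 94.65 ± 11.7 CPM with CoCl2. Its means were 70.1 ± 5.16 CPM with estrogen alone and 59.2 ± 2.48 CPM with both agents. PKLR was at 18% of control (log2 -2.47 ± 0.13).

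In CoCl2+estrogen cells, 15 of the 41 genes were higher and 3 lower than with estrogen alone. This comparison of 2 groups is called CoCl2 added to estrogen below, though each agent was given for 4 hours. Of all genes tested in that comparison, 17% were called, 8.14% higher and 8.85% lower, against 43.9% of the listed genes. The median log2 fold change was 0.12 over the 41 genes and 0.0098 over all genes. The largest increases were those of PDK1, 3.02-fold (log2 1.60 ± 0.076, adjusted p = 3.69e-10), and LDHA, 1.81-fold (log2 0.85 ± 0.065, adjusted p = 6.76e-08). Glycolytic enzymes made up 8 of the 15, with GPI at 0.52, ALDOA at 0.54, TPI1 at 0.50, ENO2 at 0.45, PGAM1 at 0.40, PGK1 at 0.38, PKM at 0.32 and ENO1 at 0.22 on the log2 scale. The remaining 5 were PDK3, PGM1, SLC2A3, HK2 and PDHA1. The 3 lower genes were SLC2A2 at -0.48 ± 0.083, HKDC1 at -0.27 ± 0.08 and PCK1 at -0.56 ± 0.18.

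Several of the smaller calls in that comparison depended on 1 library or on the fit. The HKDC1 call was lost without estrogen replicate A or C or CoCl2+estrogen replicate A or C (log2 -0.29 to -0.22). The PCK1 call was lost without replicate A or B of either group (log2 -0.52 to -0.44). PDHA1 was lost without estrogen replicate A or B or CoCl2+estrogen replicate A (log2 0.21 to 0.23), and ENO1 without CoCl2+estrogen replicate A (log2 0.20). The joint fit of the 12 libraries lost the calls of HKDC1 (adjusted p = 0.0659), ENO1 (adjusted p = 0.0527) and PDHA1 (adjusted p = 0.0815), and DESeq2 lost that of PCK1 (adjusted p = 0.109).

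The comparisons of CoCl2 with and without estrogen shared no library. Of the 10 genes raised by CoCl2 alone, 7 were also raised in the presence of estrogen, which is 7 of the 15 raised there: SLC2A3, HK2, PGK1, ENO2, PKM, LDHA and PDK1. ALDOC, GYS1 and PPP1R3C did not pass the test in the presence of estrogen, with log2 differences of 1.03 ± 0.45 for ALDOC and 0.21 ± 0.12 for GYS1 and means of 2.58 ± 0.432 CPM (estrogen) and 2.59 ± 0.193 CPM (CoCl2+estrogen) for PPP1R3C. Over the 41 genes, the log2 fold changes of CoCl2 without and with estrogen had a Pearson r of 0.491 and a Spearman rho of 0.509, and 35 of 41 had the same sign. These correlations run across genes, which are not independent replicates, and are a description only. The overlap of calls, the shared signs and the correlations were not computed over all genes. They are therefore not shown to be particular to the listed genes.

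CoCl2+estrogen cells had 5 of the 41 genes higher and 29 lower than cells with CoCl2 alone, a comparison called estrogen added to CoCl2 below. Of all genes tested, 60.9% were called, 30.1% higher and 30.8% lower, and the median log2 fold change was -0.76 over the 41 genes and -0.0027 over all genes. The 5 higher genes were PDK4, HK1, HKDC1, GBE1 and SLC2A1. All 24 genes that estrogen alone had lowered were among the 29, and 5 of the 8 it had raised were the 5 higher genes. The same overlap over all genes was not counted, and 68.9% of all genes tested were called with estrogen alone. The overlap is therefore not shown to be particular to the listed genes. Over the 41 genes, the estrogen changes without and with CoCl2 had a Pearson r of 0.947 and a Spearman rho of 0.931. These are again a description across genes, and the values over all genes were not computed. PPP1R3C fell furthest, to 6.84% of the CoCl2 level (log2 -3.87 ± 0.13), followed by ALDOC at 10.5% (log2 -3.25 ± 0.21) and LDHD at 16.6% (log2 -2.59 ± 0.29). HK2, which estrogen alone had raised, was lower than with CoCl2 alone at 82.8% (log2 -0.27 ± 0.071, adjusted p = 0.00451). SLC16A3 was lower here at -0.29 ± 0.10, a call lost without CoCl2 replicate A or CoCl2+estrogen replicate A or C (log2 -0.27 to -0.15). ENO2 was lower at -0.30 ± 0.095, a call lost without CoCl2 replicate C or CoCl2+estrogen replicate A (log2 -0.28 to -0.25).

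**Figure D4:**
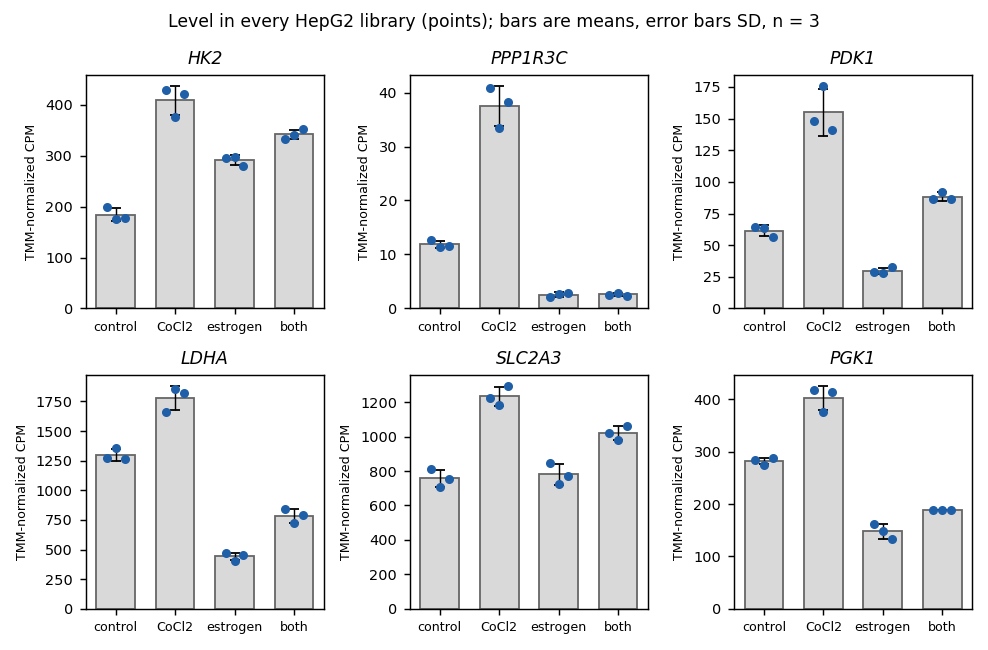
Levels of 6 genes in TMM-normalized CPM (vertical axis, starting at 0) in the 4 HepG2 groups; points are the 3 libraries of a group, bars their mean and error bars the SD. PPP1R3C is high only in CoCl2, PDK1 and LDHA are higher with CoCl2 both with and without estrogen, and HK2 is above control in all 3 treated groups.

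Whether the CoCl2 difference itself changed with estrogen was tested as an interaction over the 12 libraries. It passed for 3 of the 41 genes, 1 upward and 2 downward, and 5.8% of all genes tested were called, 2.1% higher and 3.7% lower. The called share of the listed genes, 7.32%, was close to that background. With library totals alone as the scaling, 51.6% of the called genes of the whole table were higher in place of 36.2%, and the 3 listed genes kept their calls and directions. The count was 5 without CoCl2 replicate B, 5 with DESeq2 and 6 with edgeR's filterByExpr, where GYS1 and SLC2A3 were called with both tools and PCK1 with filterByExpr.

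HK2 had an interaction of -0.89 ± 0.10 on the log2 scale (95% interval -1.11 to -0.68, adjusted p = 2.71e-05). CoCl2 raised it 2.22-fold without estrogen and 1.2-fold with estrogen. PPP1R3C had an interaction of -1.61 ± 0.21 (95% interval -2.05 to -1.17, adjusted p = 9.9e-05), the CoCl2 change being 3.17-fold without estrogen and not past the test with it. LDHA went the other way at 0.40 ± 0.11 (95% interval 0.17 to 0.62, adjusted p = 0.034), its CoCl2 change being 1.37-fold without and 1.81-fold with estrogen. The LDHA call was lost without control replicate A or B, CoCl2 replicate A, estrogen replicate B or C, or CoCl2+estrogen replicate A or C, with log2 values of 0.32 to 0.41. For PDK1 the interaction was 0.27 with an interval of 0.02 to 0.52, and for PGK1 it was -0.13 with an interval of -0.34 to 0.08, neither passing the test. PCK1 lay near the threshold at -0.74 ± 0.22 (adjusted p = 0.0575) and passed it without estrogen replicate C or CoCl2+estrogen replicate C (log2 -0.92 to -0.85).

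**Figure D5:**
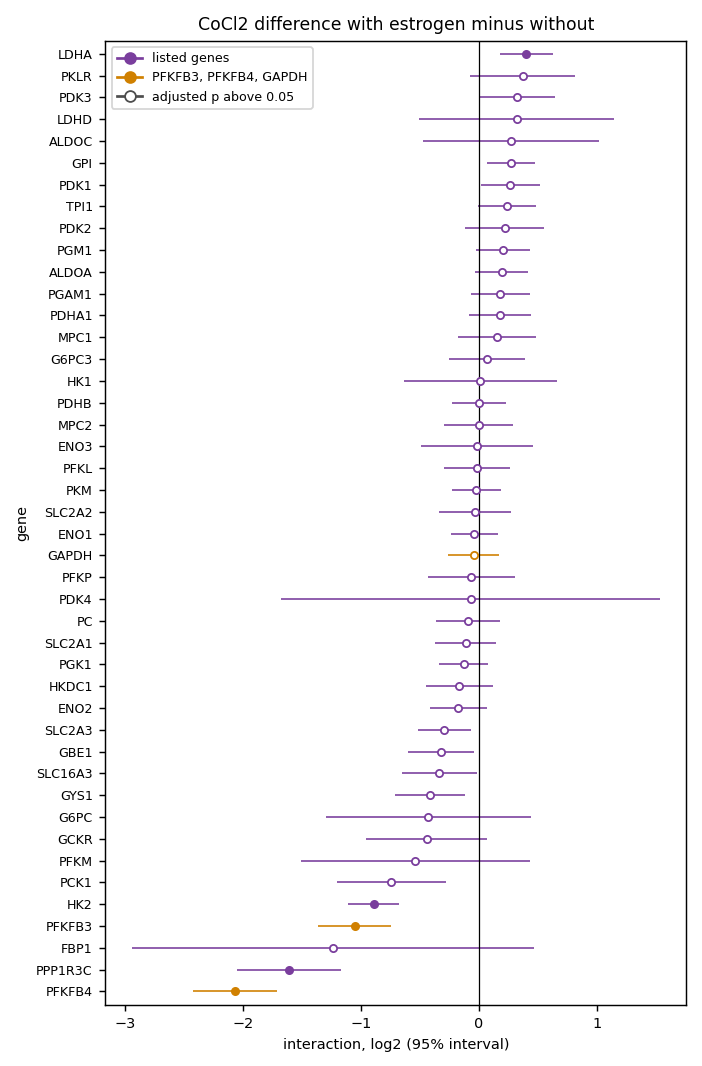
Interaction on the log2 scale, the CoCl2 difference with estrogen minus that without it, with 95% intervals (horizontal axis), for the 41 listed genes (purple) and PFKFB3, PFKFB4 and GAPDH (orange), sorted by value (vertical axis). Filled points have an adjusted p of at most 0.05; these are LDHA on the right and HK2, PFKFB3, PPP1R3C and PFKFB4 on the left.

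The wider glucose network was read from a second list of 91 genes. With CoCl2 alone 4 of its 76 tested genes were higher, or 5.26%, against 1.31% of all genes tested. They were PFKFB3 and PFKFB4, the bifunctional enzymes that make and break fructose 2,6-bisphosphate, the allosteric activator of phosphofructokinase, STBD1, which anchors glycogen to membranes, and PPP1R3E, which steers protein phosphatase 1 to glycogen. PFKFB3 had 14.5, 13.2 and 13.7 CPM in the control libraries, 119, 93.2 and 111 CPM in CoCl2, 10.4, 10.4 and 12 CPM in estrogen and 38.2, 42.4 and 41.3 CPM in CoCl2+estrogen. PFKFB4 had 12.4, 10.5 and 13.3 CPM in the control libraries, 85.9, 71.6 and 85.4 CPM in CoCl2, 8.42, 7 and 7.51 CPM in estrogen and 11.1, 13.1 and 12.2 CPM in CoCl2+estrogen. Both were several times above control in every CoCl2 library, and with both agents PFKFB4 was back within the range of the control libraries while PFKFB3 was still above them. The CoCl2 changes without estrogen were 2.97 ± 0.11 and 2.76 ± 0.11 on the log2 scale, those with estrogen 1.92 ± 0.095 and 0.69 ± 0.13. In the interaction test 7 of 77 genes of the second list were called, 3 upward and 4 downward, or 9.09% against 5.8% of all genes tested. The upward ones were PDP2, RPIA and PRPS2 and the downward ones PFKFB3, PFKFB4, TIGAR and STBD1. The interactions were -1.05 ± 0.15 for PFKFB3 (adjusted p = 0.000233) and -2.07 ± 0.17 for PFKFB4 (adjusted p = 1e-06). With estrogen alone 50 of 76 of these genes were called, 16 higher and 34 lower, and with both agents 50 of 77, 17 higher and 33 lower. These shares, 65.8% and 64.9%, were slightly below the 68.9% and 65.4% of all genes tested. HIF1A, whose protein CoCl2 stabilizes, had mRNA levels of 384 ± 38.5 CPM in control and 396 ± 36.2 CPM in CoCl2, and fell to 297 ± 14.8 CPM with estrogen (log2 -0.39 ± 0.075, adjusted p = 0.000279).

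Some of these genes have near-identical copies elsewhere in the genome. PGAM1 shares its sequence with the retrocopy PGAM4, listed at 10.2 ± 2.03 CPM in control and 5.54 ± 0.703 CPM in estrogen, and PGK1, LDHA, ENO1, TPI1, ALDOA, PKM and GAPDH have processed pseudogenes. How reads that fit several places were counted is not given in the sources used here, so the levels of these genes are uncertain to that extent.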

How the data were processed

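RNA-Seq of 12 HepG2 libraries, 3 per group, was analysed, with groups, doses and time taken from the labels. The values the authors deposited are estimated counts without any scaling, 23.2% of them not whole numbers. The submitters' processing notes name Bowtie2 2.2.5, STAR 2.7.8a, Partek and the builds hg38 and mm10, without roles, and the libraries came from a stranded total RNA kit with ribosomal depletion. After rounding, edgeR 4.0.16 under R 4.3.3 was applied (glmQLFit and glmQLFTest, TMM scaling, two-sided, Benjamini-Hochberg adjustment over all genes tested), on the 6 libraries of each comparison and, for the interaction of CoCl2 and estrogen, on all 12. SE is the log2 fold change over the square root of F. The functions were tested on simulated counts.

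The listed genes, the second list and the marker lists were chosen with earlier results of these data known. Values in every library are given for genes averaging 1 CPM or more: the 8 largest called changes with CoCl2, the 4 largest rises and falls with estrogen and with both agents, and genes called in the interaction. Other genes are given by role with the smallest adjusted p first, and those named as uncalled, gained or lost were chosen after their values were seen. PDK4 and the low genes are also given as counts.

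Alternatives were DESeq2 1.42.0, median-ratio and upper-quartile scaling, library totals alone, no filter, filterByExpr, a joint fit of the 12 libraries, a block for the replicate letter, and the omission of each library in turn. The mouse liver table was not used, and promoters, proteins and gene lengths were not analysed here.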

Additional observations from a re-analysis of the deposited data

Results flagged for a closer look

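By the interaction test over the 12 libraries, the CoCl2 difference changed with estrogen for 3 of the 41 listed genes, or 7.32%. That share was close to the 5.8%, or 967 genes, called over the whole table. In the second list it was 7 of the 77 tested genes, or 9.09%. For the 5 called genes whose values are given, the interaction was -0.89 for HK2, -1.61 for PPP1R3C, 0.40 for LDHA, -1.05 for PFKFB3 and -2.07 for PFKFB4, each on the log2 scale. In HK2, PFKFB3 and PFKFB4 the CoCl2 increase was smaller with estrogen, in PPP1R3C it did not pass the test with estrogen, and in LDHA it was larger with estrogen. The LDHA interaction call was lost under several omissions of 1 library, given above, and under the replicate block (adjusted p = 0.0508).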

How the results depend on the processing

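No called change of a listed gene changed direction under any alternative run. The count of listed genes called moved by more than 1.5 times in these cases: with CoCl2 alone it was 16 with DESeq2 in place of 10, and for the interaction it was 5 with DESeq2 and 6 with filterByExpr in place of 3. Leaving out 1 library at a time gave 8 to 14 genes with CoCl2 alone, 31 to 33 with estrogen alone, 32 to 33 with both agents against control, 14 to 17 for CoCl2 added to estrogen (18 with all libraries), 32 to 36 for estrogen added to CoCl2, and 2 to 5 for the interaction, the 5 without CoCl2 replicate B. Over the whole table, the 229 calls with CoCl2 alone became 359 with all 12 libraries in one fit, 136 without control replicate A, 147 without control replicate B and 140 without CoCl2 replicate C, and the 2706 calls for CoCl2 added to estrogen became 1671 without estrogen replicate A. Scaling by library totals alone shifted the median of all genes to -0.13 with estrogen and -0.10 with both agents on the log2 scale, and the 32 listed genes called in each kept their calls. The cause of these shifts was not tested.

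Whether the replicate letters pair the libraries could not be settled. Deviations from group means correlated at -0.31 to 0.289 between same-letter libraries and at -0.389 to 0.351 between different letters. For letters A, B and C the values were 0.215, 0.289 and -0.03 between CoCl2 and control. Between CoCl2+estrogen and estrogen they were -0.04, 0.261 and 0.114. Estrogen against control gave 0.048, -0.262 and -0.213. With the letter as a block, 327 genes of the whole table were called with CoCl2 alone in place of 229. For CoCl2 added to estrogen it was 3791 in place of 2706, and the other fits called fewer. With the letter as a replicate block, 12, 31, 32, 18, 34 and 2 listed genes were called in the 6 fits, in the order CoCl2, estrogen, both agents, CoCl2 added to estrogen, estrogen added to CoCl2, and interaction. The LDHA interaction and the ENO1 change with estrogen lost their calls under the block, and with CoCl2 alone SLC2A2 (lower) and ALDOA (higher) gained them. ENO2 and MPC1 were also called lower with estrogen under upper-quartile scaling and library totals alone, and ALDOC was called higher for CoCl2 added to estrogen in the joint fit (adjusted p = 0.0474). Depth limited FBP1, FBP2 and PDK4, where groups held few or no counts. LDHB had 0 counts in all 12 libraries, and whether its RNA was absent or its reads were not counted was not tested.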

Other observations

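Outside the listed genes, 9 of 11 tested genes of the pentose phosphate pathway, which branches off glucose 6-phosphate to make NADPH and ribose, fell with estrogen alone and 0 rose by edgeR's test or at an unadjusted p under 0.05. Over all genes tested 34.7% were higher and 34.2% lower in that comparison. TALDO1, the transaldolase, dropped from 99.8 ± 6.07 to 35.1 ± 1.54 CPM (log2 -1.52 ± 0.07), and H6PD, which works in the endoplasmic reticulum, changed by -1.40 ± 0.076 on the log2 scale. In the tricarboxylic acid cycle, 4 of 17 genes rose and 10 fell with estrogen alone, 82.4% against 68.9% called over all genes. IDH2, the mitochondrial NADP-dependent isocitrate dehydrogenase, fell from 79.6 ± 5.55 to 11.4 ± 0.721 CPM (log2 -2.82 ± 0.083), with ACO1 at -1.40 ± 0.067 and SUCLG2 at -1.71 ± 0.084 on the log2 scale.

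Regulators of glucose use moved in both directions with estrogen alone, 12 of 18 higher and 3 lower, 83.3% called against the same 68.9%. TXNIP, an inhibitor of glucose uptake that responds to sugar, rose from 86.6 ± 4.38 to 705 ± 28 CPM (log2 3.01 ± 0.062) and was lower again with both agents at 381 ± 14.2 CPM. MYC changed by 1.99 ± 0.059 and CEBPA, a hepatocyte transcription factor, by -2.83 ± 0.12. PDP1, the phosphatase that opposes the PDKs, rose from 9.54 ± 0.336 to 65.9 ± 6.9 CPM (log2 2.77 ± 0.093), and TIGAR, which lowers fructose 2,6-bisphosphate, changed by 1.44 ± 0.074. STBD1, which anchors glycogen to membranes, was higher with CoCl2 alone at log2 0.94 ± 0.078 and with estrogen alone at log2 2.01 ± 0.071.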
